A study of Mus musculus with 37 samples.

Results

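The genes described here are 6 genes of the atrial chamber programme of the embryonic mouse heart: the COUP-TF transcription factors Nr2f1 and Nr2f2, the myosin light chain genes Myl7 and Myl4, the lipid transfer protein gene Stard10 and the potassium channel gene Kcna5. They were listed by symbol, with earlier results of these data known, and all 6 were found among the 25239 gene rows of the count table. All 6 also passed the filter on low counts. Messenger RNA levels were read from paired-end sequencing libraries, each made from total RNA of hearts dissected at stage E10.5.

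The 37 hearts came from 1 kind of cross, in which the father (Stra8-iCre; Nipbl Flox/+) transmitted Nipbl in a functional or in a null form, and the mother carried a Cre recombinase in 1 allele of Isl1 (Isl1 Cre/+), which leaves a single working copy. The groups are called wild-type (Nipbl +/+; Isl1 +/+, n = 10), Isl1_het (Isl1 +/-, n = 9), Nipbl_het (Nipbl +/-, n = 9) and double_het (Nipbl +/-; Isl1 +/-, n = 9). Nipbl loads cohesin onto chromosomes, and Isl1 is a transcription factor of cardiac progenitors. The study's design text names the functional paternal allele as the Flox form, although the father is also listed with a + allele. The Isl1_het and double_het hearts carry the Cre allele, so the loss of 1 Isl1 copy and the presence of Cre cannot be told apart here. The labels do not say whether hearts of a group shared a litter, so p-values measure the spread between these samples.

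COUP-TFs are orphan nuclear receptors. In the developing heart they are expressed in the atria and the venous pole, and Nr2f2 is needed for atrial identity of cardiomyocytes. Myl7 and Myl4 encode the regulatory and the essential myosin light chains of atrial muscle, and in the early embryo both are also present in ventricular muscle. Kcna5 encodes the channel of the ultrarapid delayed rectifier current, which is atrial in the adult human heart, and Stard10 encodes a protein that carries phospholipids between membranes.

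The windows upstream of 4 members are shown because the correlations described further on turn on these genes: Nr2f1 and Stard10 as the closest pair, and Kcna5 and Myl7 for the channel and the light chains. Each window is the 250 bases before a RefSeq gene start (GRCm38.p6), 5′ to 3′ on the strand of the gene, in lower case with motif matches in capitals. The Nr2f1 window is chr13:78198874-78199123 (minus strand), the Stard10 window chr7:101316836-101317085 (plus strand), the Kcna5 window chr6:126535556-126535805 (minus strand) and the Myl7 window chr11:5898783-5899032 (minus strand). In Myl7 the capitals mark a CArG box, the motif of serum response factor, and in Stard10 the T-box motif GGTGTGA.
Nr2f1: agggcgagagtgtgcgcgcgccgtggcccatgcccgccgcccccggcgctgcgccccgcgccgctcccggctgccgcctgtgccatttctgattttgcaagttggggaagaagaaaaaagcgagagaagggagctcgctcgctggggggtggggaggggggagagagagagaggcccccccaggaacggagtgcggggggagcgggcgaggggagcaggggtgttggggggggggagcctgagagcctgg
Stard10: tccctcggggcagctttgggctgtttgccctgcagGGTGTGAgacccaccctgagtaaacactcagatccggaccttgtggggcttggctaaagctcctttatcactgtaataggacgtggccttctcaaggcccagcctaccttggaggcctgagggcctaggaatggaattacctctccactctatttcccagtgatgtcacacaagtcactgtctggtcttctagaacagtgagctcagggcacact
Kcna5: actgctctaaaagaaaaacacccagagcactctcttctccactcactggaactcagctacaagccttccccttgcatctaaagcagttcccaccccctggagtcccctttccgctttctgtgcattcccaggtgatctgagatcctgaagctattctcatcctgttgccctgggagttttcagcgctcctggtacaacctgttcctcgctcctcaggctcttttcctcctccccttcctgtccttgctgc
Myl7: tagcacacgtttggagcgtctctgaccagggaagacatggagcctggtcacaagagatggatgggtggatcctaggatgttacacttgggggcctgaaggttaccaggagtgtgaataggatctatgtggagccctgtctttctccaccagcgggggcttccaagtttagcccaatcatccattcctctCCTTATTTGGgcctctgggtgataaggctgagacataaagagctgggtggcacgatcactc

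The Myl7 match began 61 bases before the gene start, and 1.47% of 32851 windows of this length held a CArG box on either strand. GGTGTGA was found in 3.33% of windows. The nuclear receptor half-site AGGTCA, searched on both strands, was in none of the members' windows and in 14% of all windows, which says only that these letters are not in these windows. The printed Nr2f1 window held 22 CpG dinucleotides and a second RefSeq window of that gene held 2, against 3 in Stard10, 3 in Kcna5 and 4 in Myl7, with a median of 6 over all windows. The windows of Nr2f2, Myl4 and Stard10 lie 6.2, 26.3 and 4.0 kb from the start of the principal transcript in GENCODE M21, and those of Nr2f1 lie 0.9 and 3.3 kb from it, the printed one inside the gene. None of these covers the sequence next to that start.

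Nipbl and Isl1 were examined first, as the targeted genes. Nipbl was at 60.0 ± 10.1 CPM (counts scaled to library size with TMM factors, mean ± SD, n = 10) in wild-type hearts and 39.3 ± 13.8 CPM (n = 9) in Nipbl_het hearts, which is -0.74 on the log2 scale (SE 0.12, edgeR quasi-likelihood test, adjusted p = 3.48e-04). One library labelled Nipbl_het, replicate 2, had 72.4 CPM of Nipbl, inside the wild-type range of 47.6 to 78.8 CPM, so this level goes against its label. It also had the lowest transcript-length index of all libraries, described further on. In wild-type, Nipbl was likewise highest at the lowest index of the group (replicate 6) and lowest at the highest index (replicate 3). Double_het showed the same (replicates 2 and 8), and Isl1_het neither. Whether label or library composition sets the Nipbl level of Nipbl_het replicate 2 was not tested. Nipbl_het replicate 2 also stood apart on the first principal component, at a distance of 114.4 from the origin where no other library exceeded 40.2. It was below every other Nipbl_het library for 5181 and above for 5379 of 15046 genes. Isl1 was not lower beyond the threshold in Isl1_het (log2 change -0.20, SE 0.18, edgeR adjusted p = 0.877), so its level does not check that label. It was higher in Nipbl_het (0.79, SE 0.19, adjusted p = 0.0252). In double_het, labelled Isl1 +/-, it was at 9.50 ± 3.51 CPM (n = 9) against 7.37 ± 2.24 CPM (n = 10) in wild-type, a difference that did not pass (0.32, SE 0.20, adjusted p = 0.591). Libraries held between 23.4 and 51.0 mega-counts. A second library, wild-type replicate 2, had ordinary Nipbl but the lowest Nr2f1, Nr2f2 and Stard10 of all hearts, as given below. Each library carries a set number: sets 2, 5 and 6 held all genotypes, set 1 held wild-type and Isl1_het libraries only, and set 7 held only double_het replicate 2, which the set term fits exactly, so fitted double_het comparisons rest on 8 libraries.

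**Figure D1:**
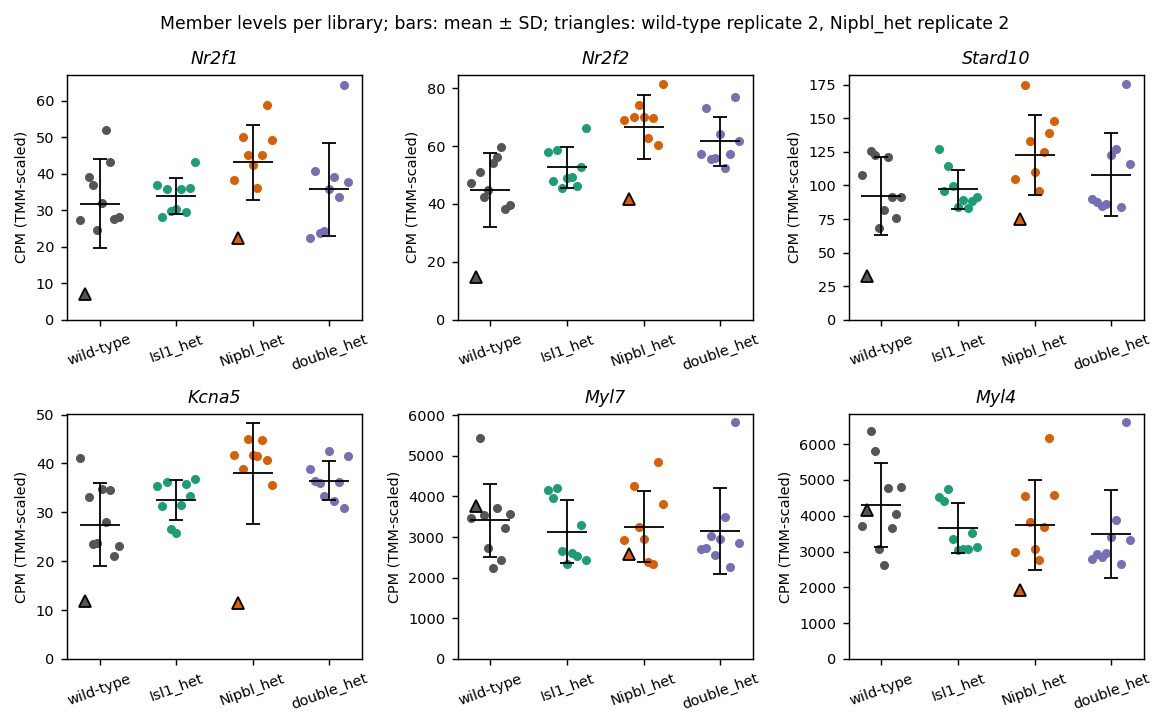
Level of each member in each of the 37 libraries (CPM after TMM scaling, linear axes from 0) by genotype, with mean and SD bars over 10 wild-type and 9 libraries of each other genotype. Triangles mark wild-type replicate 2 and the library labelled Nipbl_het replicate 2; for Nr2f2, 8 of 9 Nipbl_het libraries lie above the highest wild-type library at 59.6 CPM.

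Per length of the principal transcript, the wild-type levels fell into separate tiers. Myl7 was at 5788.3 and Myl4 at 4558.9 CPM per kb, far above Stard10 at 65.6, Nr2f2 at 10.6, Nr2f1 at 9.92 and Kcna5 at 9.61 CPM per kb. The lowest 3 lie within each other's spread (SD 3.80 for Nr2f1 and 3.01 for Nr2f2, n = 10). Nr2f1 shares 123 exon bases with the opposite-strand gene A830082K12Rik and Nr2f2 shares 643 with B130024G19Rik. Those genes had mean counts of 87.5 and 20.4 per library, and the strand setting of the counting is not given in the sources used here.

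No member passed the threshold of adjusted p 0.05 in any of the 8 comparisons (edgeR). The nearest was Nr2f2 in Nipbl_het. In wild-type hearts Nr2f2 ranged from 14.8 to 59.6 CPM with a median of 46.0, and in Nipbl_het hearts from 41.8 to 81.3 CPM with a median of 69.7. All Nipbl_het libraries except Nipbl_het replicate 2 were above every wild-type library. The log2 change was 0.55 (SE 0.15, 95% interval 0.25 to 0.86), with an unadjusted p of 8.66e-04 and an adjusted p of 0.0503 in edgeR, just outside the threshold.

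The change of Nr2f2 was in 1 direction in each set that allows the comparison. Nipbl_het minus wild-type differed by 0.776 log2 CPM in set 2, 0.511 in set 5 and 0.179 in set 6. In double_het, Nr2f2 ranged from 52.5 to 77.1 CPM with a median of 57.4, all 9 hearts above the wild-type mean of 44.8 CPM and 4 of 9 above the highest wild-type heart. Its log2 change there was 0.44 (SE 0.16, edgeR adjusted p = 0.171), and in Isl1_het 0.27 (SE 0.15, adjusted p = 0.839).

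Nr2f1, the other COUP-TF, overlapped more between genotypes. It ranged from 6.93 to 52.1 CPM in wild-type (median 30.2) and from 22.5 to 59.0 CPM in Nipbl_het (median 45.1), with 1 of 9 Nipbl_het hearts above every wild-type heart. The log2 change was 0.42 (SE 0.21, edgeR adjusted p = 0.355), and in double_het 0.16 (SE 0.22, adjusted p = 0.854). Both intervals include 0.

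Kcna5 ranged from 11.8 to 41.2 CPM in wild-type (median 25.9) and from 11.5 to 45.1 CPM in Nipbl_het (median 41.6). In Nipbl_het, 5 of 9 hearts were above every wild-type heart and Nipbl_het replicate 2 was below every wild-type heart. The log2 change was 0.47 (SE 0.18, edgeR adjusted p = 0.188). The double_het hearts lay between 30.9 and 42.5 CPM, a narrow range whose 9 values were all above the wild-type mean of 27.5 CPM, with a log2 change of 0.46 (SE 0.19, adjusted p = 0.273).

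Stard10 ranged from 32.9 to 125.5 CPM in wild-type (median 91.5) and from 74.8 to 174.9 CPM in Nipbl_het (median 124.8), with 4 of 9 hearts above every wild-type heart. The log2 change was 0.50 (SE 0.17, edgeR adjusted p = 0.141). In double_het the median was 90.0 CPM, near that of wild-type, with a log2 change of 0.34 (SE 0.18, adjusted p = 0.481).

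The myosin light chains did not pass either, and their medians were lower in Nipbl_het than in wild-type. Myl7 had medians of 3510.1, 2656.8, 2942.1 and 2850.7 CPM in wild-type, Isl1_het, Nipbl_het and double_het, and Myl4 of 4099.7, 3357.9, 3671.3 and 2971.1 CPM. In Nipbl_het the log2 change was 0.19 for Myl7 (SE 0.14, edgeR adjusted p = 0.528) and -0.04 for Myl4 (SE 0.17, adjusted p = 0.942). The direction of Myl7 in Nipbl_het depended on the set term, since it was -0.07 without it. With the transcript-length index described further on as a covariate, an alternative added after the data were seen, Myl7 passed for the Nipbl effect averaged over Isl1 (0.17, edgeR adjusted p = 0.0327), against 0.21 (adjusted p = 0.337) without that covariate. The covariate raised the share of all genes called in that comparison from 4.02% to 9.58%. Set alone passed the threshold for Myl7 (adjusted p = 0.00200), as it did for 38.2% of genes, and median Myl7 went from 4060.8 CPM in set 1 to 2390.7 CPM in set 6.

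These counts stand against the background of all 15046 genes tested. In Nipbl_het 1.71% of genes passed, in double_het 2.60%, and for the Nipbl effect averaged over Isl1 4.02%. Double_het against Isl1_het gave 0.957% and the Isl1 effect averaged over Nipbl 0.173%. At an unadjusted p under 0.05, the members numbered 3 in Nipbl_het, 2 in double_het and 3 in the averaged Nipbl effect, where 15.1%, 11.6% and 14.9% of all genes were under it, and 0 in the other comparisons. DESeq2 with the same design called 1 member, Nr2f2 in Nipbl_het (log2 change 0.54, adjusted p = 0.0244), where it called 3.05% of all genes, and 0 members elsewhere. In Isl1_het against wild-type, double_het against Nipbl_het and the interaction, edgeR called 0 genes, with 886, 1355 and 411 genes at an unadjusted p under 0.05, and DESeq2 called 11, 0 and 0. The interaction of the 2 alleles was -0.44 for Nr2f1 and -0.38 for Nr2f2 (SE 0.30 and 0.21, edgeR adjusted p = 0.999 for both), so a difference of the Nipbl effect between Isl1 backgrounds was not detectable.

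**Figure D2:**
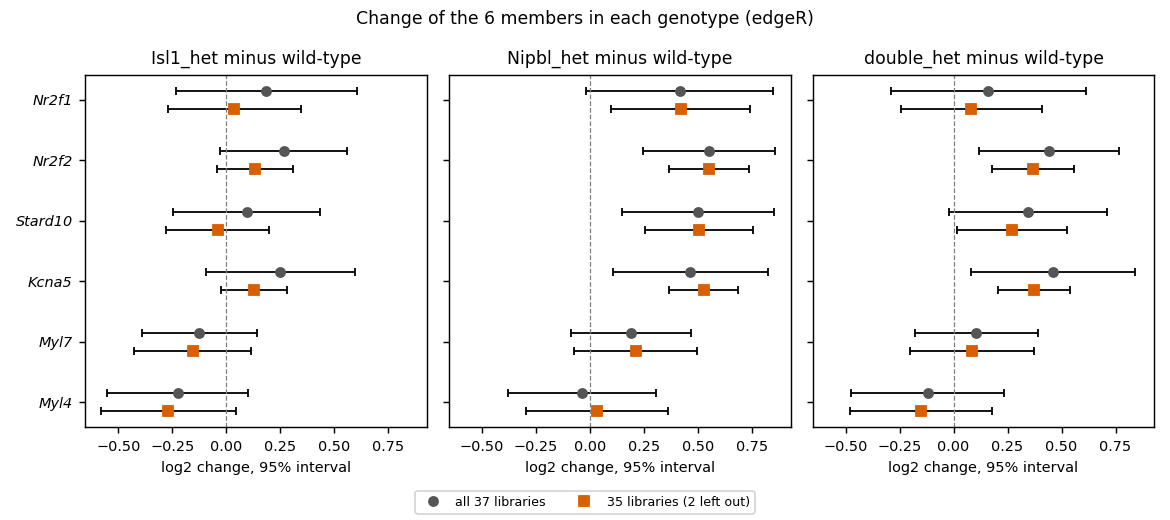
Log2 change of each member against wild-type with its 95% interval (edgeR with genotype and set), for Isl1_het, Nipbl_het and double_het, with all 37 libraries (circles) and with wild-type replicate 2 and Nipbl_het replicate 2 left out (squares). In Nipbl_het the Nr2f2 estimate is 0.55 both ways, and its interval is narrower without the 2 libraries.

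Both doubted libraries bear on these calls. Without Nipbl_het replicate 2, Nr2f2 (0.61, adjusted p = 0.0160) and Kcna5 (0.58, adjusted p = 0.00908) passed in Nipbl_het, where 2.72% of genes passed. Without wild-type replicate 2, Nr2f2 passed alone (0.50, adjusted p = 0.00835), against 1.58% of genes. Without both, Nr2f2 (0.55, adjusted p = 4.16e-04), Stard10 (0.51, adjusted p = 0.0199) and Kcna5 (0.53, adjusted p = 1.60e-04) passed in Nipbl_het, where 2.46% of genes passed. In double_het, Nr2f2 (0.37, adjusted p = 0.0143) and Kcna5 (0.37, adjusted p = 0.00444) then passed, against 5.17% of genes. Wild-type replicate 2 was singled out by its low values of these same members, so the p-values without it are a description and not independent support.

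Wild-type replicate 2 was below every other wild-type heart in 4 of the 6 members, as it was for 1335 of all 15046 genes, with 1024 genes above. It had 6.93 CPM of Nr2f1, 14.8 of Nr2f2, 32.9 of Stard10 and 11.8 of Kcna5, where the next wild-type hearts had 24.6 CPM of Nr2f1 and 38.4 of Nr2f2. Myl7 and Myl4 were within the range of the other wild-type hearts. Single genes of the atrium and venous pole were low in it too: Osr1, a posterior second heart field factor, was at 0.293 CPM where the lowest other wild-type heart had 4.07, Vsnl1 at 2.96 against 13.6, and Shox2, a sinus node factor, at 0.846 against 2.03. These 3 were named after their values were seen. Of 8 sinus and pacemaker genes 2 were below every other wild-type heart and 2 above, of 8 posterior second heart field genes 2 were below, and of 7 venous endothelial genes 0 were outside the range. Below every other wild-type heart were also 6 of 14 atrial, 4 of 8 epicardial, 4 of 14 retinoic acid and all 7 tested erythroid genes, and 4 of 10 ventricular genes were above. The part of tissue composition or dissection in these values was not tested, and in bulk samples fewer cells of a type and less RNA per cell cannot be told apart.

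The members varied together to different degrees. With all libraries, Nr2f1, Nr2f2, Stard10 and Kcna5 had r of at least 0.682 with each other. Correlations were taken between residual log2 CPM values, after removal of genotype and set, over the 36 libraries of sets with more than 1 library. All 15 pairs were tested by 100000 permutations within sets, with values refitted to genotype and set after each shuffle, and p-values were adjusted over the 15 pairs. The values share libraries and depth, and hearts are not sorted cells.

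Nr2f1 and Stard10 were the closest pair, with r = 0.948 and rho = 0.918 (permutation adjusted p = 5.00e-05 and 3.00e-05), and r = 0.895 without the 2 libraries farthest from the median. Within genotypes r ran from 0.895 in Nipbl_het to 0.968 in wild-type, and within sets 1, 2, 5 and 6 it was 0.994, 0.902, 0.901 and 0.891. Nr2f1 and Nr2f2 had r = 0.874 and rho = 0.749 (permutation adjusted p = 5.00e-05 and 7.50e-05), r = 0.734 without the 2 farthest libraries, and r of 0.990, 0.870, 0.716 and 0.392 within sets 1, 2, 5 and 6. Nr2f2 and Stard10 had r = 0.841 and rho = 0.722 (permutation adjusted p = 1.00e-04 and 1.29e-04), and r = 0.648 without the 2 farthest. Those 2 farthest libraries were wild-type replicate 2 and Nipbl_het replicate 2 for each of these 3 pairs. Set 1 held 6 libraries, with wild-type replicate 2 among them. Its residuals (-1.72 for Nr2f1, -1.35 for Nr2f2 and -1.40 for Stard10) were the farthest from 0 in that set, which limits the r within set 1 and within wild-type.

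Kcna5 followed the COUP-TFs less closely. With Nr2f2 it had r = 0.787 and rho = 0.673 (permutation adjusted p = 1.12e-04 and 1.50e-04), r = 0.640 without the 2 farthest libraries, and r of 0.950, 0.639, 0.877 and 0.635 within sets 1, 2, 5 and 6. With wild-type replicate 2 and Nipbl_het replicate 2 left out and the residuals refitted, Nr2f2 and Kcna5 stayed past the threshold (r = 0.502, permutation adjusted p = 0.00442, n = 34). Nr2f1 with Kcna5 went from r = 0.682 (permutation adjusted p = 0.00109) to 0.287 (0.155), and Stard10 with Kcna5 from 0.704 (7.20e-04) to 0.328 (0.111). Without those libraries the rank correlation of Nr2f1 with Kcna5 did not pass either (rho = 0.332, permutation adjusted p = 0.103), and that of Stard10 with Kcna5 did (rho = 0.432, permutation adjusted p = 0.0301).

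**Figure D3:**
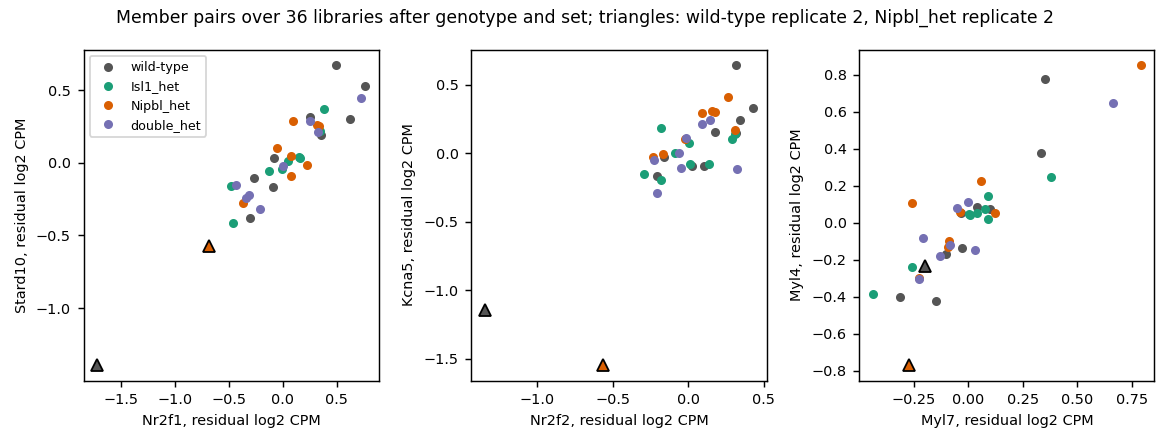
Residual log2 CPM (genotype and set removed) of Nr2f1 against Stard10, Nr2f2 against Kcna5 and Myl7 against Myl4, 1 point per library over 36 libraries, coloured by genotype. Triangles mark wild-type replicate 2 and Nipbl_het replicate 2, which lie far from the rest in the Nr2f2 and Kcna5 panel; r is 0.948, 0.787 and 0.880.

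Myl7 and Myl4 went together, with r = 0.880 and rho = 0.812 (permutation adjusted p = 5.00e-05 and 3.00e-05), r = 0.817 without the 2 farthest libraries, and r between 0.827 and 0.995 within the 4 sets. Of the 10052 genes compared, 5% had r above 0.899 with Myl4, 0.839 with Myl7, 0.599 with Nr2f1 and 0.603 with Stard10. With Nr2f1 and Stard10, Myl7 was below that level and Myl4 above it. The light chains also went with Nr2f1 (r = 0.590 for Myl7 and 0.627 for Myl4, permutation adjusted p = 1.00e-04 for both) and with Stard10 (r = 0.555, adjusted p = 2.33e-04, and r = 0.641, adjusted p = 1.07e-04, by permutation). These rose without the 2 doubted libraries, to 0.695 and 0.717 with Nr2f1 and 0.649 and 0.751 with Stard10, for Myl7 and Myl4 (permutation adjusted p from 3.00e-05 to 1.75e-04, n = 34). Over the same 34 libraries Nr2f1 and Stard10 had r = 0.867, Nr2f1 and Nr2f2 0.647, and Nr2f2 and Stard10 0.520 (permutation adjusted p = 3.00e-05, 9.00e-04 and 0.00877). Nr2f2 was not past the threshold with Myl7 (r = 0.289, permutation adjusted p = 0.105) or Myl4 (r = 0.332, permutation adjusted p = 0.0537), although both rank correlations passed (adjusted p = 0.0316 and 0.0263). Without the 2 doubted libraries neither rank correlation passed (rho = 0.301 and 0.293, permutation adjusted p = 0.158 for each). Kcna5 passed with neither light chain (r = 0.187 and 0.343).

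The genes most like each member differed between the light chains and the rest. For Myl4 they were Tnni3, a troponin, and the respiratory chain genes Ndufa8, Atp5o, Uqcr10 and Ndufs8, at r from 0.981 to 0.985 over 36 libraries. For Myl7 they were Nudt2, Snrpd1, Arl3, Mrpl42 and Mrpl54, at 0.947 to 0.957. For Nr2f2 they were Trabd2b (r = 0.929), Vsnl1 (0.903), Cav1 (0.861), Ap3b2 (0.781) and Svep1 (0.737), and for Nr2f1 Trabd2b (0.853), Vsnl1 (0.860), Ptgr1 (0.817), Baiap2l2 (0.776) and Tigd2 (0.755). Trabd2b and Vsnl1 were also among the 5 nearest of Stard10 and Kcna5, beside Baiap2l2, Fxyd6 and Tnnt3 for Stard10, and Ap3b2, Cav1 and Thbd for Kcna5. Without the 2 libraries, r was lower for 18 of the 20 neighbours of Nr2f1, Nr2f2, Stard10 and Kcna5. Trabd2b then had r = 0.754 with Nr2f2, 0.615 with Nr2f1, 0.478 with Stard10 and 0.400 with Kcna5, and Vsnl1 0.713, 0.639, 0.530 and 0.486. The 2 that were higher were Ptgr1 with Nr2f1 (0.833) and Cav1 with Kcna5 (0.795), and those of Myl4 stayed at 0.980 to 0.986. Over 36 libraries, the highest 5% of genes had r above 0.397 with Nr2f2, 0.599 with Nr2f1, 0.603 with Stard10 and 0.655 with Kcna5.

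Genes that went with the light chains, and with Nr2f1 and Stard10, had a short exon length, taken as all exons of a gene merged over its transcripts. By this measure Myl4 itself has 4637 bases, where its principal transcript has 943. The transcript-length index below uses this exon length. The tenth of genes most like Myl4 had a median exon length of 2.21 kb and the tenth most like Myl7 2.22 kb, against 4.73 kb over all genes. For Nr2f1 it was 2.44 kb, for Stard10 2.46 kb, for Nr2f2 3.44 kb and for Kcna5 4.01 kb. A library-wide index was therefore computed, the mean log2 CPM of the shortest 10% of genes (up to 1.65 kb of exon) minus that of the longest 10% (from 9.80 kb), leaving out the members. With genotype and set removed, Myl4 correlated with this index at r = 0.968 and rho = 0.910, and Myl7 at r = 0.881 and rho = 0.839 (permutation adjusted p = 1.50e-05 for each). Without the 2 farthest libraries r was 0.951 and 0.863. Stard10 had r = 0.638, Nr2f1 0.624, Kcna5 0.368 and Nr2f2 0.330, and without the 2 doubted libraries these were 0.757, 0.724, -0.142 and 0.175 (n = 34). For Kcna5 r was 0.166 without the 2 farthest libraries. The index was built because genes like the light chains in these same libraries were short. Its p-values are therefore a description and not independent support.

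**Figure D4:**
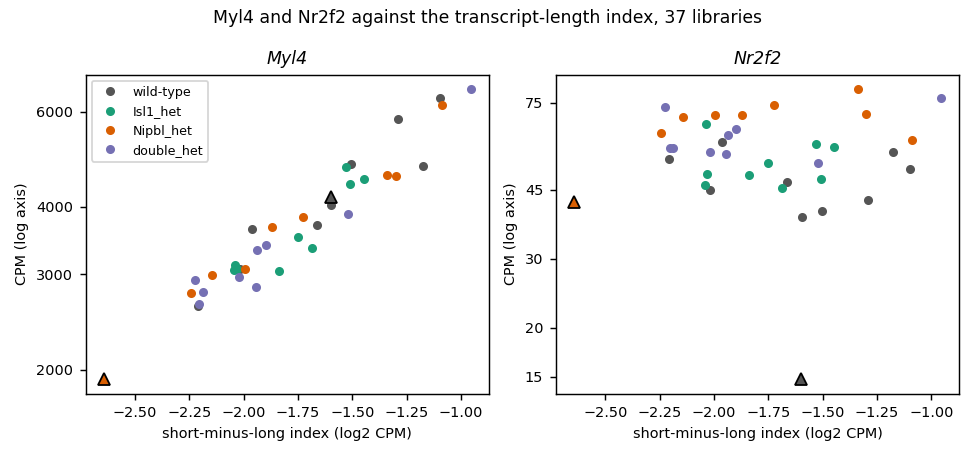
Level of Myl4 and Nr2f2 (CPM, log axis) against the short-minus-long transcript index (log2 CPM) in 37 libraries, coloured by genotype; triangles mark wild-type replicate 2 and Nipbl_het replicate 2. Myl4 rises along the index (r = 0.968 after genotype and set), and Nr2f2 follows it far less (r = 0.330).

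With the index removed as well, the light chains no longer went together beyond the threshold (r = 0.227, permutation adjusted p = 0.469), nor with Nr2f1 (0.110 and 0.116) or Stard10 (-0.02 and 0.123). The other 4 members kept their relations: r was 0.913 for Nr2f1 and Stard10, 0.906 for Nr2f1 and Nr2f2, 0.868 for Nr2f2 and Stard10, 0.759 for Nr2f2 and Kcna5, 0.656 for Stard10 and Kcna5 and 0.623 for Nr2f1 and Kcna5, with permutation adjusted p from 7.50e-05 to 0.0149. With the 2 libraries left out too, all 6 of these pairs passed, at r from 0.541 to 0.765 and permutation adjusted p from 1.50e-04 to 0.00397. The index ran from -2.21 to -1.10 in wild-type, -2.04 to -1.45 in Isl1_het, -2.64 to -1.09 in Nipbl_het and -2.22 to -0.96 in double_het hearts, and its lowest value was that of Nipbl_het replicate 2. What moves it between libraries was not tested.

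**Figure D5:**
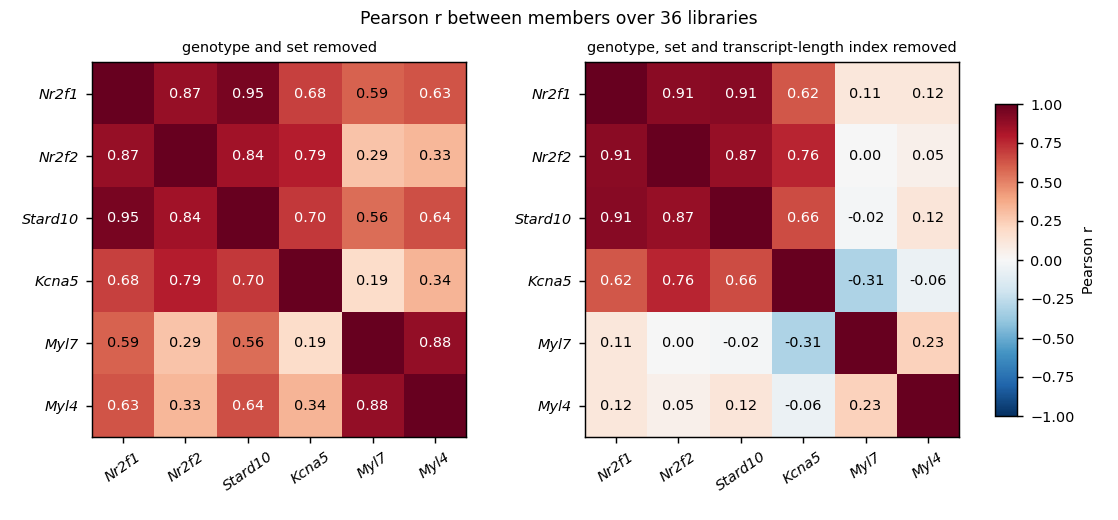
Pearson r between members over 36 libraries, with genotype and set removed (left) and with the transcript-length index removed too (right); colour runs from -1 to 1. The block of Nr2f1, Nr2f2, Stard10 and Kcna5 stays at 0.62 to 0.91, while Myl7 with Myl4 goes from 0.88 to 0.23.

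Other atrial genes give the context. Over 14 atrial genes tested, the median log2 change in Nipbl_het was 0.12, against 0.01 over all genes. It was above 0 for 9 of them and below 0 for 5, down to -0.316. Of the 14 genes, 4 were higher in Nipbl_het (edgeR adjusted p under 0.05, where 1.20% of all genes were higher) and 0 lower. They were Sln, an inhibitor of the sarcoplasmic calcium pump (1.84, SE 0.40, adjusted p = 0.0109), the potassium channel gene Kcnj3 (0.53, SE 0.09, adjusted p = 9.71e-04), Dkk3 (0.58, SE 0.13, adjusted p = 0.0139) and the myosin-binding protein gene Mybphl (0.42, SE 0.08, adjusted p = 0.00306). Nipbl_het replicate 2 had 443.1 CPM of Dkk3, where the other Nipbl_het hearts had 144.3 to 206.8. Without that library the Dkk3 change was 0.41 (edgeR adjusted p = 0.00354). Sln was low in absolute terms, with medians of 0.610 CPM in wild-type and 1.97 CPM in Nipbl_het. In double_het Sln (2.23), Kcnj3 (0.37) and Dkk3 (0.52) passed, where 1.77% of all genes were higher. There 5 of the 14 genes were below 0, down to -0.324. Sln was also higher in Isl1_het than in wild-type in sets 1, 2, 5 and 6 (by 1.817, 0.793, 2.882 and 1.034 log2 CPM), where 0 of the 14 genes passed. Vsnl1, which like Trabd2b was among the 5 nearest genes of 4 members, had a log2 change of 0.83 in Nipbl_het (SE 0.29) and did not pass (edgeR adjusted p = 0.138).

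Of 10 ventricular genes tested, 3 passed in Nipbl_het and 4 in double_het, against 1.71% and 2.60% of all genes. The transcription factor genes Irx4 and Mycn fell in Nipbl_het (log2 change -0.47 for each) and Kcne1, a potassium channel subunit, rose (0.38). In double_het Irx4 (-0.50), Mycn (-0.50) and Hey2 (-0.42) fell and Kcne1 rose (0.35). Over the ventricular list the median was -0.21 in Isl1_het, where 9 of the 10 genes were below 0 and 0 passed by edgeR, -0.23 in Nipbl_het and -0.29 in double_het. Nipbl_het replicate 2 was below every other Nipbl_het library in 7 of the 10 genes, with 34.0 CPM of Irx4 against 56.3 to 82.9. Without it the median in Nipbl_het was -0.18 and 4 of 10 passed, where 2.72% of all genes passed. Irx4 was among the 4 (-0.39, edgeR adjusted p = 0.0152).

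The partner and upstream genes of COUP-TFs gave no calls. Of 13 COUP-TF relatives and partners, 14 retinoic acid pathway genes, 8 sinus and pacemaker genes, 8 posterior second heart field genes and 12 pan-cardiomyocyte genes, 0 passed in edgeR in any of the 8 comparisons. Between 0% and 4.02% of all genes passed in these comparisons, so a count of 0 in lists this short is near that share. Median log2 changes in Nipbl_het were -0.01 for the COUP-TF relatives, 0.21 for retinoic acid genes, 0.22 for sinus genes, 0.32 for posterior second heart field genes and -0.15 for cardiomyocyte genes. Nipbl_het replicate 2 was above every other Nipbl_het library in 7 of the 14 retinoic acid genes and below in 3, and without it the 5 medians were -0.01, 0.11, 0.28, 0.38 and -0.12. Of 8 epicardial genes, 1 (Wt1, 0.31) rose in Nipbl_het and 6 in double_het, where 1.77% of all genes were higher. The summed level of the epicardial list ranged from 269.5 to 476.4 CPM in wild-type and from 539.4 to 701.6 CPM in double_het. The part of these cells in the member values was not tested. Erythroid genes, a sign of blood in the tissue, summed to between 497.0 and 105602.3 CPM over all hearts, with no call in these comparisons. All 7 tested were below 0 in Nipbl_het (median log2 change -0.80) and above 0 in double_het (0.68) and Isl1_het (0.54). Nipbl_het replicate 2 was below every other Nipbl_het library in 6 of these 7, and without it the Nipbl_het median was -0.66, or -0.72 without wild-type replicate 2 as well. All 7 venous and lymphatic endothelial genes were above 0 in Nipbl_het (median 0.27) and 6 of 7 in double_het (0.33), and Lyve1, a lymphatic endothelial receptor, rose in the averaged Nipbl effect (0.56, edgeR adjusted p = 0.00958). Nipbl_het replicate 2 was above every other Nipbl_het library in 4 of these 7, with 8.82 CPM of Lyve1 against 3.89 to 5.49. Without it the Nipbl_het median was 0.17 and the averaged Lyve1 effect 0.52 (edgeR adjusted p = 0.00585). The part of blood and venous endothelium in the member values was not tested. In 1 library, Nipbl_het replicate 9, liver and foregut genes summed to 358.2 CPM, where the median of its genotype was 2.35.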

How the data were processed

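Whole-heart RNA was sequenced as paired-end libraries made with NEBNext Ultra II reagents, per the labels' protocols. The authors deposited raw read counts per gene symbol, with 37 library columns and 0 other columns of values. The submitters' processing notes name STAR, featureCounts and GRCm38 (mm10). Versions, annotation, strand setting and filters are not given in the sources used here. Genes were filtered by genotype with filterByExpr (minimum count 10, minimum total 15), scaled by TMM and fitted with edgeR 4.0.16 (limma 3.58.1, R 4.3.3) on genotype and set number. Set number is the number after the letters IVF in the description label, whose meaning is not spelled out. Tests were two-sided with Benjamini-Hochberg adjustment over 15046 genes. Standard errors came from the F statistic. Among 153 pairs of the same genotype, the chi-square of counts per degree of freedom was at least 7.19, so no pair agreed within sampling noise. DESeq2 1.42.0 was an alternative. Log2 CPM used a prior count of 2. Correlations used Python 3.11.15, numpy 2.4.6, pandas 2.3.3 and scipy 1.17.1, with figures by matplotlib 3.10.9. Permuted residuals were refitted to genotype and set, and on simulated unrelated pairs this test kept its nominal error rate. Those pairs were normal values with shifts by set and genotype. They held no extreme library and no library-wide factor, so the error rate in these data was not tested. The edgeR model was also tested on simulated data. Positions and lengths came from GENCODE M21 and upstream windows from RefSeq GRCm38.p6, which held windows for all 6 members.

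The members, the 14 other gene lists and the tests were chosen with earlier results of these data known. Named genes are the members, the targeted genes, list genes past the threshold, and the 5 genes most like each member, by the smaller Pearson r with and without Nipbl_het replicate 2, among genes whose mean log2 CPM reached 3. Outside that rule, Osr1 and Shox2 were named after their values were seen. The opposite-strand genes A830082K12Rik and B130024G19Rik were named because they share exon bases with Nr2f1 and Nr2f2. The transcript-length index and the fits without both doubted libraries were added after the data were seen. Alternatives also covered the set term, scaling, filters, a cardiomyocyte covariate, sets and single libraries.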

Additional observations from a re-analysis of the deposited data

Results flagged for a closer look

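In 7 of 24 member and genotype combinations, 1 library stood apart from its group by the gap to its nearest neighbour relative to the whole range (Dixon's criterion). Chance flags about 1 in 20 independent groups, and these combinations share libraries and genes that vary together.

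The double_het replicate 8 library had the highest value of its genotype for Nr2f1 (64.3 CPM, next 40.9), Myl7 (5844.9 CPM, next 3485.6), Myl4 (6606.6 CPM, next 3879.2) and Stard10 (175.3 CPM, next 126.9), and the highest transcript-length index of all libraries, -0.96. Wild-type replicate 3 had the highest Myl7 of its genotype, 5432.9 CPM where the next had 3758.5. Wild-type replicate 2 had the lowest Nr2f2, 14.8 CPM where the next had 38.4. The library labelled Nipbl_het replicate 2 had the lowest Kcna5, 11.5 CPM where the next had 35.6. The part of library composition in these values was not tested.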

How the results depend on the processing

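Counts of members past the threshold were 0 in the results as reported. For Nipbl_het against wild-type the count was 1 (Nr2f2) without the set term (3.10% of all genes called), with the replicate block in its place (2.36%), without set 1 (0.777%), with sets 2, 5 and 6 alone (0.777%), and with DESeq2 (3.05%), 2 with the transcript-length index as covariate (Nr2f2 and Stard10, 5.77%), and 3 without both doubted libraries (2.46%). Leaving out 1 library in turn gave 0 to 2, with Nr2f2 passing without wild-type replicate 2, 3, 7 or 8 or Nipbl_het replicate 2 or 8, and Kcna5 without Nipbl_het replicate 2. With the replicate block the Nr2f2 change was 0.573 (edgeR adjusted p = 0.0369). In double_het against wild-type it was 2 without both doubted libraries (5.17%) and 0 on leaving out any single library. For the averaged Nipbl effect it was 1 without the set term (6.95%) and with the replicate block (6.60%), 2 without set 1 (516 of 15194 genes called) and with sets 2, 5 and 6 alone (3.39%), 3 with the length index (Nr2f2, Stard10 and Myl7, 9.58%), 3 without both doubted libraries (Nr2f2, Stard10 and Kcna5, 6.98%), and 0 to 2 on leaving out 1 library (above 0 without wild-type replicate 2 or 4 or Nipbl_het replicate 2). In the other 5 comparisons it was 0 under each alternative run. Fits without set 1 and with sets 2, 5 and 6 alone differ only by the set 7 library, which the set term fits exactly. They are nearly the same fit and count as 1 alternative. Replicate numbers share no stated source. Same-numbered libraries had a median correlation of deviations of 0.0279, with 17 of 54 pairs above 0.1, and 5 of 37 libraries correlated best with their own number.

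Of 672 single-member values under 14 alternative fits, 47 changed sign, none of them past the threshold. Without the set term, the changed signs were Myl7 -0.067 in Nipbl_het, Myl7 -0.114 in double_het, Nr2f1 0.073 and Myl4 -0.065 in double_het against Isl1_het, Myl7 -0.029 and Myl4 -0.135 in the averaged Nipbl effect. With the replicate block, the changed signs were Myl7 -0.080 in Nipbl_het, Myl7 -0.119 in double_het, Nr2f1 0.055 and Myl4 -0.091 in double_het against Isl1_het, Kcna5 0.000 in double_het against Nipbl_het, Myl7 -0.035 and Myl4 -0.153 in the averaged Nipbl effect. Without set 1, the changed signs were Stard10 -0.024 in Isl1_het, Nr2f1 0.034 in double_het against Isl1_het. Without set 2, the changed signs were Nr2f1 -0.045 and Myl7 -0.062 in double_het, Myl7 -0.011 and Myl4 -0.126 in double_het against Isl1_het, Kcna5 0.060 in double_het against Nipbl_het, Myl7 -0.165 and Myl4 -0.040 in the interaction, Myl4 -0.106 in the averaged Nipbl effect. Without set 5, the changed signs were Myl4 0.274 in Nipbl_het, Myl4 0.137 in double_het, Nr2f1 0.244 in double_het against Isl1_het, Nr2f1 0.043 and Kcna5 -0.007 in the averaged Isl1 effect. Without set 6, the changed signs were Nr2f1 0.020 in double_het against Isl1_het, Myl7 0.021 and Myl4 0.085 and Kcna5 0.012 in double_het against Nipbl_het, Myl4 -0.057 in the averaged Nipbl effect, Stard10 0.004 in the averaged Isl1 effect. With sets 2, 5 and 6 alone, the changed signs were Stard10 -0.024 in Isl1_het, Nr2f1 0.034 in double_het against Isl1_het. Without both doubted libraries, the changed signs were Stard10 -0.039 in Isl1_het, Myl4 0.032 in Nipbl_het, Nr2f1 0.045 in double_het against Isl1_het, Nr2f2 -0.025 and Kcna5 -0.013 in the averaged Isl1 effect. With the length index as covariate, the changed signs were Myl4 -0.009 in double_het against Isl1_het, Kcna5 0.024 in double_het against Nipbl_het, Myl7 -0.032 in the interaction, Myl4 -0.023 in the averaged Nipbl effect, Nr2f1 0.051 and Stard10 0.048 in the averaged Isl1 effect. The correlation of Myl7 and Stard10 was -0.020 with the length index removed. The cause of these changes was not tested.

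With 9 or 10 hearts per genotype, the 95% interval of the Nr2f2 change in Nipbl_het spans 0.25 to 0.86. Leaving out single libraries changed which members passed. No molecular identifiers are stated, so reads may not be independent molecules.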
